A study of Homo sapiens with 8 samples.

Results

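The ATF4 pathway genes and cytosolic tRNA synthetase genes described here are 40 genes of 23131 symbols in the deposited tables. They were chosen by name, as known ATF4 targets and synthetases, with earlier results of these data known. Counts set beside the share of all genes thus describe this list only. Each gene corresponds to 1 row per sample. By role they are 13 stress regulators, 8 enzymes of amino acid and one-carbon synthesis, 6 amino acid transporters, 12 cytosolic tRNA synthetases and the tRNA exporter XPOT. RNA was measured by polyA RNA sequencing in 2 human fibroblast lines that received siRNA to SUPT4H1 or a control siRNA. SUPT4H1 encodes SPT4, which with SPT5 forms the elongation factor DSIF of RNA polymerase II. The groups were SUPT4H1 siRNA in line 2, control siRNA in line 2, SUPT4H1 siRNA in line 1 and control siRNA in line 1, with 2 samples each. All samples share the transfection reagent, Lipofectamine RNAiMax, and the medium, DMEM with serum. Each line is 1 source of cells, and nothing in the labels says that the replicate treatments were separate cultures, so each p-value reflects the spread of these samples alone, which may be technical. In such bulk samples, fewer cells of a type and less RNA per cell cannot be told apart.

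ATF4 is the transcription factor at the centre of the integrated stress response. Kinases that sense amino acid shortage, misfolded protein, heme shortage or double-stranded RNA phosphorylate the initiation factor eIF2, which slows protein synthesis in general and lets the ATF4 mRNA be translated through its upstream reading frames. ATF4 pairs with C/EBP family proteins on sites called C/EBP-ATF response elements and raises genes for amino acid synthesis, uptake and tRNA charging, together with regulators such as CHOP. ATF4 protein was not measured here, and its mRNA level is not a measure of its activity.

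The response elements are read as the letters TGATGNAA on either strand. RefSeq promoter windows of GRCh38.p14, which run from 250 bases before to 50 bases after each annotated start, were available for 33 of the 40 genes. In 14 of these 33, or 42.42%, at least 1 window holds the letters, against 4.46% of all 27305 genes with windows. The stricter form TGATGCAA is in 10 of the 33, or 30.3%, against 1.08% of all genes. Some genes have several windows. Counted by window, TGATGNAA is in 14 of the 50 windows of these genes, or 28%, against 3.62% of all 35116 windows. For TGATGCAA the shares are 20 and 0.87%. Among the roles, the letters TGATGNAA are in 7 of 10 synthetases, 4 of 6 transporters, 1 of 5 synthesis enzymes and 2 of 11 stress regulators. The matches are shown because most of the synthetases with windows hold the letters. Each line reads 5′ to 3′ on the strand that spells the letters, with the matched letters in capitals and 11 bases on each side where the window reaches that far.
AARS (chr16:70289675-70289704, plus strand): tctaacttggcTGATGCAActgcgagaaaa
CARS (chr11:3057407-3057436, plus strand): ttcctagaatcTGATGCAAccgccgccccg
IARS (chr9:92293692-92293721, plus strand): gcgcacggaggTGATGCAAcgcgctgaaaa
MARS (chr12:57488053-57488082, minus strand): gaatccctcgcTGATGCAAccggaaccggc
NARS (chr18:57621804-57621833, minus strand): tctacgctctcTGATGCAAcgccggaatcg
TARS (chr5:33440956-33440985, minus strand): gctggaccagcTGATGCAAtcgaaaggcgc
GARS (chr7:30594834-30594863, minus strand): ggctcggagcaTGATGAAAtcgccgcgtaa
SLC1A4 (chr2:64989381-64989410, minus strand): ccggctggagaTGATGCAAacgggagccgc
SLC1A5 (chr19:46784893-46784922, minus strand): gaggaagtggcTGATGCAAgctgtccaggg
SLC7A1 (chr13:29595663-29595692, minus strand): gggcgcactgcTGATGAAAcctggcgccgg
SLC3A2 (chr11:62881725-62881748, minus strand): ggagcTGATGTAAggagtcctgca
CHAC1 (chr15:40953251-40953280, minus strand): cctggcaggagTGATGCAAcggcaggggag
CEBPG (chr19:33374060-33374089, plus strand): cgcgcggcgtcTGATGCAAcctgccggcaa
ASNS (chr7:97872458-97872487, minus strand): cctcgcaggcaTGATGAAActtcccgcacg

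The letters lie near the annotated start in 5 of the 6 synthetases with the form TGATGCAA. Their first base on the gene's strand is at -13 in IARS, -4 in MARS, -2 in CARS, 3 in TARS and 15 in NARS, counted from 1 at the start. In AARS it is at -187, and in CHAC1 at -209. The 250 bases before the start are shown for these 2 genes, where the match is far from the start, on the strand of each gene. The letters appear there as their reverse complement.
AARS (chr16:70289507-70289756, minus strand): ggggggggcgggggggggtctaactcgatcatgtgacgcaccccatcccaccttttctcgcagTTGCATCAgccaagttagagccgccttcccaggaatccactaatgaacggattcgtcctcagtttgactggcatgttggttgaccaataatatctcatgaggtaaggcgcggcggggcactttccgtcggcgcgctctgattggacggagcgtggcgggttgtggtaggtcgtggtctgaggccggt
CHAC1 (chr15:40953221-40953470, plus strand): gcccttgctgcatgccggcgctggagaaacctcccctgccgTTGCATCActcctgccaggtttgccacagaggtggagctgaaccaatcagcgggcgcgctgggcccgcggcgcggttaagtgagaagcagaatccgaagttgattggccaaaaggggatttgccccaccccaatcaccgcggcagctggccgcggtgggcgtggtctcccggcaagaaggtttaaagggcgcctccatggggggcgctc

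Values are FPKM as deposited, a level corrected for transcript length and library size. They summed to between 287996 and 305010 per sample over the rows used, and the number of fragments behind them is not given. SUPT4H1 mRNA, the check of the labels, was at 6.3% of its control level in line 2 and 5.5% in line 1, and this fall did not differ detectably between the lines (log2 difference 0.09, SE 0.06, limma adjusted p = 0.398). Of 8 fibroblast markers with usable values all were above 1 FPKM on average, led by VIM, while all 6 epithelial, 5 endothelial and 4 melanocyte markers averaged under 1 FPKM. The immune list summed to 59.39 to 78.06 FPKM after SUPT4H1 siRNA and 45.08 to 51.92 FPKM in control samples, nearly all of it CD68, a lysosomal protein that fibroblasts also make. Of the 5 immune markers 2, CD68 and CD14, averaged at least 1 FPKM. PTPRC, the pan-leukocyte marker, stayed at or under 0.206 FPKM, and CD3E and MS4A1 were at 0. The part of these immune markers in the results was not tested.

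All 40 genes passed the filter of a mean of 1 FPKM, and their values ran from 4.64 to 222.8 FPKM. The half-width of the deposited interval was 1.07 to 10.7% of the value. What the interval covers is not given in the sources used here. It is given per sample and so does not show the spread between samples. Each gene was tested with limma on log2(FPKM + 1) among 11430 genes, with Benjamini-Hochberg adjustment and a threshold of 0.05. Changes are SUPT4H1 siRNA minus control siRNA on that log2 scale, and they slightly understate the change of the lowest genes.

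Genes of this pathway were lower after SUPT4H1 siRNA, and much more so in line 2 than in line 1. Over both lines with the line as block, 25 of the 40 fell and 1 rose, where 15.2% of all genes tested fell and 26.9% rose. The median change of the 40 was -0.20, against 0.03 over all genes tested. Without the line term 4 of the 40 fell (DDIT3, DDIT4, EIF4EBP1 and NUPR1) and 0 rose, beside 1.78 and 3.58% of all genes. In line 2 alone 32 of the 40 fell and PPP1R15A rose, against 15.9 and 27% of all genes. In line 1 alone 13 fell and 3 rose, against 11.7 and 19% of all genes. The 3 that rose in line 1 were STC2, PHGDH and SLC38A2. All 13 that fell in line 1 also fell in line 2, where 7.88% of all genes fell in both lines.

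The difference between the lines was itself tested. In 29 of the 40 genes the change in line 2 was lower than that in line 1, and in 0 it was higher, where over all genes tested 4.49% were lower and 5.4% higher in line 2, or 9.89% in either direction. The median difference, line 2 minus line 1, was -0.25 for the 40 and 0.01 for all genes. Of these 29 calls, 21 stayed past the threshold without any 1 of the 8 samples. The order of the samples needs no model. Both SUPT4H1 siRNA samples lay below both control samples in line 2 for 34 of the 40 genes and in line 1 for 20, where 28 and 26.3% of all genes were so ordered. This held in both lines for 20 genes, beside 16.6% of all genes. Both SUPT4H1 siRNA samples lay above both controls in line 2 for 1 gene and in line 1 for 8, beside 43.8 and 40.9% of all genes, and in both lines for 1, beside 28.8%.

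**Figure D1:**
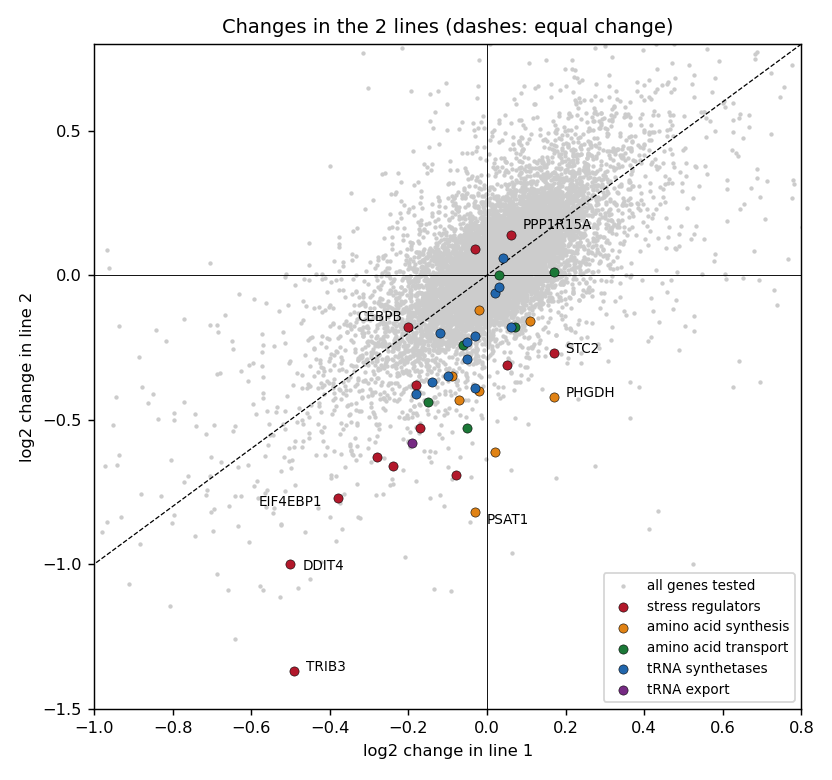
Log2 change (SUPT4H1 siRNA minus control siRNA) of each gene in line 1 on the x axis and in line 2 on the y axis, with all 11430 genes tested in grey, the 40 pathway genes coloured by role and the dashed line at equal change. Of the 40 coloured points 36 lie below the dashed line, with TRIB3 lowest at -1.37 in line 2 and -0.49 in line 1, and some grey points lie outside the axes.

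The stress regulators had the largest changes. ATF4 itself (22:39916564-39918691 in hg19) stood at 149.8 and 154.1 FPKM after SUPT4H1 siRNA in line 2, against 217.7 and 221.2 FPKM in its controls. In line 1 it stood at 190.8 and 198.1 FPKM, against 215.9 and 222.8 FPKM in control samples. The SUPT4H1 siRNA samples were below the controls in each line without overlap, and the control samples of the 2 lines overlapped. The change was -0.53 in line 2 (SE 0.03, limma adjusted p = 1.56e-06) and -0.17 in line 1 (SE 0.03, limma adjusted p = 0.00235), with a difference of -0.35 between the lines (limma adjusted p = 0.00098).

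TRIB3, a pseudokinase induced by ATF4 and CHOP that holds back their activity, had the largest fall of the 40 genes. It had 8.33 and 8.04 FPKM after SUPT4H1 siRNA in line 2, against 23.81 and 21.81 FPKM in control samples. Its line 1 values were 21.64 and 25.18 FPKM, against 33.87 and 32.74 FPKM. Thus 35.9% of the control level was left in line 2 and 70.3% in line 1, and the control level of line 2 was 0.68 of that of line 1. The block fit gave -0.93 (SE 0.15, limma adjusted p = 0.00127), a call that the fit without the line did not give (adjusted p = 0.218).

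DDIT3, which encodes the transcription factor CHOP, had 19.54 and 18.57 FPKM after SUPT4H1 siRNA in line 2, against 31.38 and 28.89 FPKM in control samples. The values in line 1 were 24.05 and 25.73 FPKM, against 30.09 and 30.93 FPKM. The groups did not overlap in either line, and the changes were -0.63 in line 2 and -0.28 in line 1. The row of DDIT3 shares 68 bases with that of MARS, and since the use of strand is not given in the sources used here, reads of the shared bases cannot be assigned.

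DDIT4, an inhibitor of the growth kinase complex mTORC1, fell to 39.22 and 37.37 FPKM in line 2, against 77.49 and 77.85 FPKM in control samples. In line 1 it was at 53.68 and 57.27 FPKM, against 77.41 and 80.37 FPKM. EIF4EBP1, which encodes the translation repressor 4E-BP1, a target of mTORC1, fell to 57.8% of control in line 2 and 76.2% in line 1. Both falls passed in the block fit (DDIT4 -0.75, adjusted p = 2.04e-04, and EIF4EBP1 -0.57, adjusted p = 2.52e-04, limma).

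NUPR1, a small stress-induced nuclear protein, had 79 and 81.45 FPKM after SUPT4H1 siRNA in line 2, against 102.7 and 106.6 FPKM in control samples. In line 1 it had 90.09 and 92.75 FPKM, against 102.1 and 106 FPKM. VLDLR, a lipoprotein receptor that ATF4 induces, fell to 58.8% of control in line 2 and 82.3% in line 1, and its line 1 call was lost without control line 1 replicate 2 (adjusted p = 0.0553) or SUPT4H1 line 1 replicate 1 (adjusted p = 0.0523). Neither gene overlapped between the siRNAs in any line.

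CEBPB, a C/EBP family partner of ATF4, fell by 0.18 in line 2 and by 0.20 in line 1, and the lines did not differ detectably (difference 0.01, SE 0.06, limma adjusted p = 0.912). CEBPG, another dimer partner of ATF4, had 9.94 and 9.42 FPKM after SUPT4H1 siRNA in line 2, against 11.97 and 12.54 FPKM in control samples. Its line 1 values were 16.37 and 17.76 FPKM, against 16.36 and 16.47 FPKM. CEBPG fell in line 2 and did not pass in line 1 (adjusted p = 0.423), with a difference that passed (limma adjusted p = 0.00643). CHAC1, an enzyme that degrades glutathione, followed the same pattern, with 9.46 and 9.33 FPKM against 15.49 and 16.06 FPKM in line 2 and 15.37 and 16.74 FPKM against 16.48 and 17.56 FPKM in line 1.

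STC2, a secreted glycoprotein induced by ATF4, went opposite ways in the 2 lines. It had 77.8 and 75.62 FPKM after SUPT4H1 siRNA in line 2, against 90.81 and 94.27 FPKM in control samples, a change of -0.27 (limma adjusted p = 1.23e-04). The values in line 1 were 48.07 and 49.89 FPKM, against 43.13 and 43.87 FPKM, a change of 0.17 (limma adjusted p = 0.00334). Its control level in line 2 was 2.13 times that of line 1.

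PPP1R15A, which encodes GADD34, the subunit that directs dephosphorylation of eIF2, was the one gene that rose in the block fit. It had 25.18 and 24.17 FPKM after SUPT4H1 siRNA in line 2, against 21.74 and 22.78 FPKM, and 24.68 and 23.84 FPKM in line 1, against 23 and 23.47 FPKM. The change of 0.10 (SE 0.03, limma adjusted p = 0.0235) was lost after scaling by median ratios (adjusted p = 0.0757). It was also lost without SUPT4H1 line 1 replicate 1 (adjusted p = 0.0556), control line 2 replicate 1 (0.0648) or SUPT4H1 line 2 replicate 1 (0.0721). The rise in line 2 alone was lost without control line 2 replicate 1 (adjusted p = 0.0689) or SUPT4H1 line 2 replicate 1 (0.0784). EIF2AK3, the eIF2 kinase PERK of the endoplasmic reticulum, was at 5.57 and 5.15 FPKM in line 2, against 5.2 and 4.78 FPKM, and at 5.41 and 5.31 FPKM in line 1, against 5.55 and 5.4 FPKM, with overlapping samples in each line (limma adjusted p = 0.577).

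**Figure D2:**
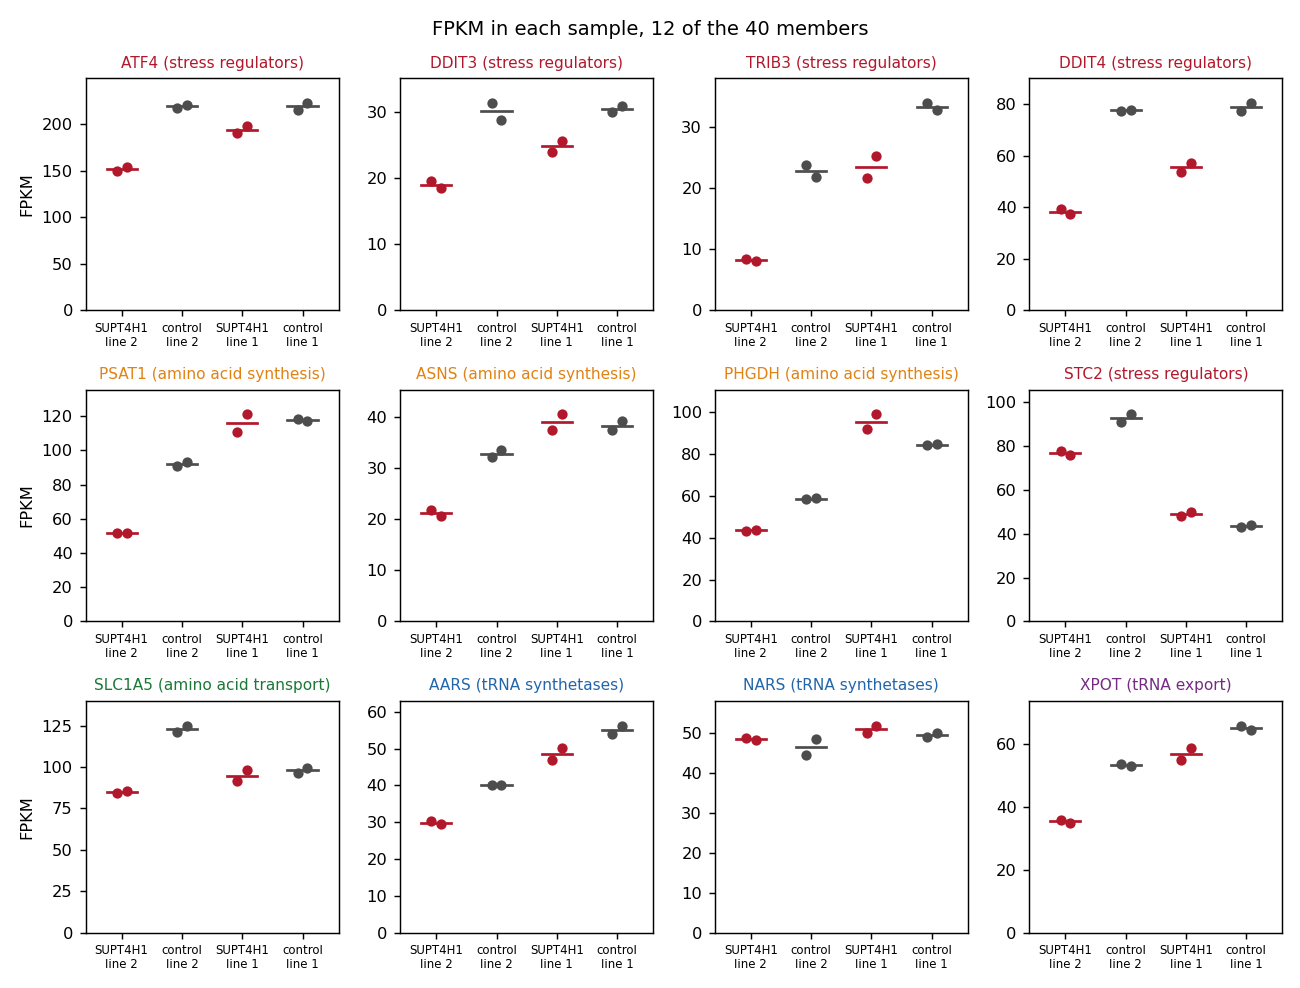
FPKM of 12 of the 40 genes, with 1 point per sample, a bar at the mean of the 2 samples of a group, SUPT4H1 siRNA in red and control siRNA in grey, and the y axis from 0. ATF4, DDIT3, TRIB3 and DDIT4 are lower after SUPT4H1 siRNA in both lines, PSAT1 and ASNS in line 2 with overlap in line 1, and PHGDH and STC2 are lower in line 2 and higher in line 1.

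Of the 8 enzymes of amino acid synthesis, 7 fell in line 2 and 0 rose, where 15.9% of all genes tested fell and 27% rose. In line 1, 0 fell and PHGDH rose, where 11.7% of all genes tested fell and 19% rose. The median changes were -0.41 in line 2 and -0.02 in line 1. In 6 of the 8 the difference between the lines passed, lower in line 2, beside 4.49% of all genes tested. PSAT1, which transfers the amino group in the serine pathway, had 51.84 and 51.6 FPKM after SUPT4H1 siRNA in line 2, against 90.54 and 93.03 FPKM in control samples. In line 1 it had 110.5 and 121 FPKM, against 118.4 and 117.4 FPKM, so that the groups overlapped. The difference between the lines was -0.79 (SE 0.06, limma adjusted p = 4.35e-05).

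ASNS, asparagine synthetase, whose promoter holds the letters TGATGAAA at -68, had 21.77 and 20.6 FPKM after SUPT4H1 siRNA in line 2, against 32.13 and 33.51 FPKM in control samples. Its line 1 values were 37.44 and 40.52 FPKM, against 37.5 and 39.16 FPKM. It fell by 0.61 in line 2 (limma adjusted p = 5.66e-06), had a change of 0.02 in line 1 (adjusted p = 0.733) and did not pass in the block fit (adjusted p = 0.0567, and 0.0418 after scaling by median ratios).

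PHGDH, the first enzyme of serine synthesis from glycolysis, split the lines. It had 43.24 and 44 FPKM after SUPT4H1 siRNA in line 2, against 58.42 and 59.05 FPKM in control samples, and fell by 0.42 (limma adjusted p = 1.2e-05). The values in line 1 were 92 and 99.07 FPKM, against 84.53 and 84.78 FPKM, and rose by 0.17 (limma adjusted p = 0.00493). Over all genes tested, 0.464% rose in line 1 and fell in line 2, as PHGDH and STC2 did. PSPH, which completes serine synthesis, had values of -0.16 in line 2 and 0.11 in line 1, neither of which passed (adjusted p = 0.057 and 0.187).

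The mitochondrial one-carbon enzymes SHMT2, which converts serine to glycine, and MTHFD2, a folate dehydrogenase, fell in line 2 by 0.40 and 0.35. Neither passed in line 1 (adjusted p = 0.663 and 0.129). PYCR1 and ALDH18A1, the enzymes of proline synthesis, were at 73.9 and 91.9% of control in line 2 and at 95.2 and 98.7% in line 1. Both falls passed in line 2, where ALDH18A1 lost its call without control line 2 replicate 2 (adjusted p = 0.0831) or SUPT4H1 line 2 replicate 2 (0.0885). The row of SHMT2 shares 33 bases with that of NDUFA4L2.

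Among the 6 amino acid transporters, 4 fell in line 2 and 1 rose in line 1, beside 15.9 and 19% of all genes tested. SLC1A5, which carries glutamine and other neutral amino acids, had 84.47 and 85.61 FPKM after SUPT4H1 siRNA in line 2, against 120.8 and 125 FPKM in control samples. In line 1 it had 91.45 and 98.08 FPKM, against 96.63 and 99.59 FPKM, with overlap. SLC1A4, a carrier of alanine, serine and cysteine, fell to 70.3% of control in line 2 and stood at 89.2% in line 1, where it did not pass (adjusted p = 0.0535). SLC7A1, a carrier of arginine and lysine, fell to 84% of control in line 2.

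SLC3A2 and SLC7A5 encode the subunits of the leucine carrier. SLC3A2, the heavy chain, fell by 0.18 in line 2 (limma adjusted p = 9.7e-04) and had a change of 0.07 in line 1 (adjusted p = 0.121). SLC7A5, the light chain LAT1, had 50.39 and 49.05 FPKM after SUPT4H1 siRNA in line 2, against 49.43 and 50.14 FPKM in control samples, and 20.75 and 22.7 FPKM in line 1, against 20.75 and 21.73 FPKM. Its groups overlapped in each line (block fit change 0.01, SE 0.03, limma adjusted p = 0.755), while its control level in line 2 was 2.34 times that of line 1. SLC38A2, the system A carrier SNAT2, had 167.6 and 172.5 FPKM in line 2, against 165.7 and 171.7 FPKM, and rose to 152 and 155.5 FPKM in line 1, against 139.3 and 133.7 FPKM (limma adjusted p = 0.00331 in line 1).

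The tRNA synthetases attach amino acids to their tRNAs. In the block fit 8 of 12 fell and 0 rose, with a median of -0.15, where 15.2% of all genes tested fell and 26.9% rose. In line 2 the count of falls was 9 of 12 with a median of -0.22, beside 15.9% of all genes tested. In line 1 it was 4 of 12 with a median of -0.04, beside 11.7% of all genes tested. The 4 that fell in both lines were AARS, CARS, IARS and SARS, the synthetases for alanine, cysteine, isoleucine and serine. The line 1 calls of AARS, CARS and IARS were each lost without control line 1 replicate 2 (adjusted p = 0.0523, 0.0711 and 0.151). Those of CARS and IARS were also lost without control line 1 replicate 1 (0.177 and 0.148) or SUPT4H1 line 1 replicate 1 (0.211 and 0.263), and that of IARS without either SUPT4H1 sample of line 2 (0.0579 each).

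AARS had 30.4 and 29.41 FPKM after SUPT4H1 siRNA in line 2, against 40.09 and 40.25 FPKM in control samples. Its line 1 values were 46.98 and 50.28 FPKM, against 53.95 and 56.28 FPKM, again without overlap. SARS, at 1:109756515-109780804 in hg19, had 73.95 and 74.59 FPKM after SUPT4H1 siRNA in line 2, against 96.61 and 95.76 FPKM, and 111 and 113.1 FPKM in line 1, against 122.5 and 124.1 FPKM. No match of the letters was found in the windows of SARS or WARS. WARS, the tryptophan synthetase, fell to 76.2% of control in line 2 and stood at 97.6% in line 1.

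GARS, MARS, TARS and YARS, for glycine, methionine, threonine and tyrosine, fell in line 2 to between 81.8 and 87.9% of control and did not pass in line 1. The row of YARS shares 591 bases with that of S100PBP, which averaged 7.02 FPKM. EPRS, LARS and NARS, for glutamate and proline, leucine and asparagine, passed in neither line. NARS had 48.94 and 48.27 FPKM after SUPT4H1 siRNA in line 2, against 44.53 and 48.53 FPKM, and 50.01 and 51.98 FPKM in line 1, against 49.12 and 50.07 FPKM. NARS carries the letters TGATGCAA from position 15, counted from 1 at its start. It was the only synthetase of the 12 with a block fit change above 0 (0.05, SE 0.03, limma adjusted p = 0.208). XPOT, which exports tRNAs from the nucleus, fell to 66.3% of control in line 2 and 87.3% in line 1 (changes of -0.58 and -0.19, limma adjusted p = 1.83e-06 and 0.00244).

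**Figure D3:**
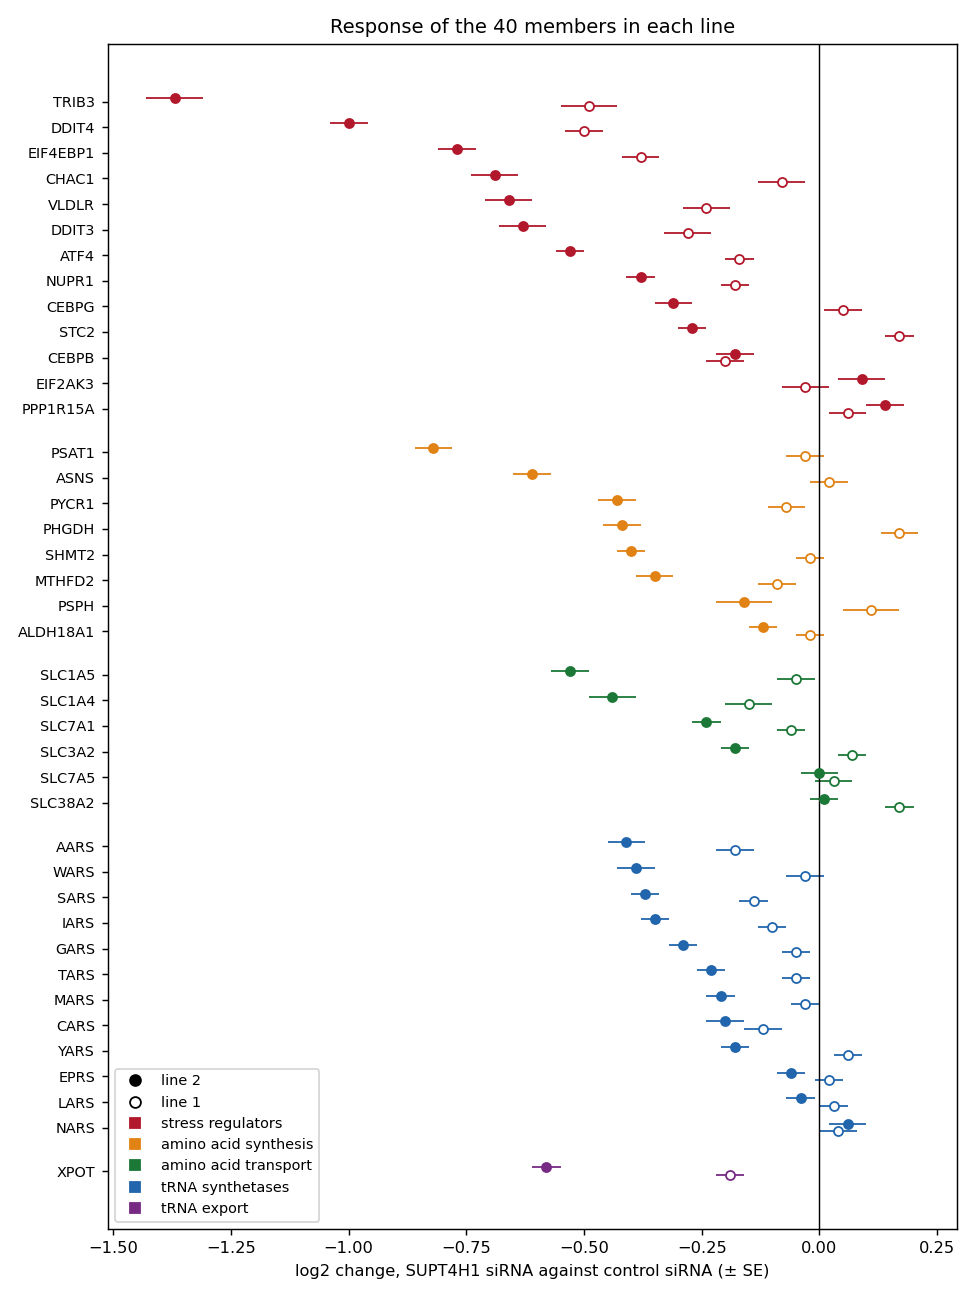
Log2 change of each of the 40 genes with its SE, filled for line 2 and open for line 1, grouped by role and sorted by the change in line 2. Stress regulators reach -1.37 (TRIB3), synthesis enzymes -0.82 (PSAT1), transporters -0.53 (SLC1A5) and synthetases -0.41 (AARS) in line 2, while most open points lie between -0.2 and 0.2.

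Of the 14 genes with the letters TGATGNAA in a window 10 fell in the block fit, or 71.43%, and of the 19 with windows but no match 11 fell, or 57.89%. Over all genes tested, 15.2% fell. A match is a description of these letters and not a site, and no match says nothing of ATF4 binding elsewhere.

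Other genes of the pathway were listed by name, also with earlier results of these data known. Those with the largest passing changes are given from each list. Of 23 further ATF4 targets 21 were tested, of which 12 fell and 4 rose in the block fit. Over all genes tested, 15.2% fell and 26.9% rose. The medians of these targets were -0.37 in line 2 and -0.12 in line 1. In line 2, 13 of the 21 fell and 3 rose, beside 15.9 and 27% of all genes tested. In line 1 the split was mixed, with 8 falls and 6 rises, beside 11.7 and 19% of all genes tested. INHBE, an activin subunit, averaged 0.2 FPKM after SUPT4H1 siRNA in line 2, against 1.88 FPKM, and 0.67 FPKM in line 1, against 1.61 FPKM. It passed the filter only through the control samples, where its mean was 1.74 FPKM, and its deposited interval reached a half-width of 48.5%. VEGFA, the vascular growth factor, averaged 31.8 FPKM in line 2, against 56.38 FPKM, and 32.8 FPKM in line 1, against 48.26 FPKM. PCK2, mitochondrial phosphoenolpyruvate carboxykinase, averaged 15.34 FPKM in line 2, against 25.8 FPKM, and 23.65 FPKM in line 1, against 26.93 FPKM. In 14 of the 21 the change was lower in line 2 and in 1 it was higher, beside 4.49 and 5.4% of all genes tested.

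Of 11 other cytosolic synthetases and their scaffold proteins 3 fell (DARS by 0.23, AIMP2 by 0.16 and FARSB by 0.14) and RARS rose by 0.07, with a median of -0.01. RARS is named as the 1 that rose, after its values were seen. Of 17 mitochondrial synthetases 3 fell and 4 rose, with a median of 0.02, where 15.2% of all genes tested fell and 26.9% rose. Among these, WARS2 fell by 0.39, while LARS2 rose by 0.21 and CARS2 by 0.20. The difference between the lines passed downwards in 1 of the 11 and 0 of the 17, beside 8 of the 12 synthetases above, and upwards in 1 of the 17, CARS2 (0.30, limma adjusted p = 0.0248). Over all genes tested, 4.49% were lower and 5.4% higher in line 2. These counts describe the lists, and the lists were not tested against each other.

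Of 17 genes for eIF2, its kinases, its exchange factor eIF2B and its phosphatases, 4 fell and 5 rose in the block fit, with a median of 0.05, where 15.2% of all genes tested fell and 26.9% rose. IMPACT, an inhibitor of the amino acid sensor GCN2, fell by 0.25, EIF2B2 fell by 0.16, and EIF2S1, the phosphorylated subunit of eIF2, rose by 0.16. The folding genes of the endoplasmic reticulum, controlled mainly by the other arms of the unfolded protein response, had 6 falls and 2 rises among 15, with a median of -0.03. SEL1L and EDEM1, of protein degradation, each fell by 0.19 and the transcription factor XBP1 by 0.18. HSPA5, the chaperone BiP, fell by 0.10 in the block fit (limma adjusted p = 0.0168). Its averages were 137.1 FPKM against 144.4 FPKM in line 2 and 131 FPKM against 142.4 FPKM in line 1. The fall passed in line 1 (-0.12, limma adjusted p = 0.0179) and not in line 2 (-0.07, limma adjusted p = 0.0823).

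**Figure D4:**
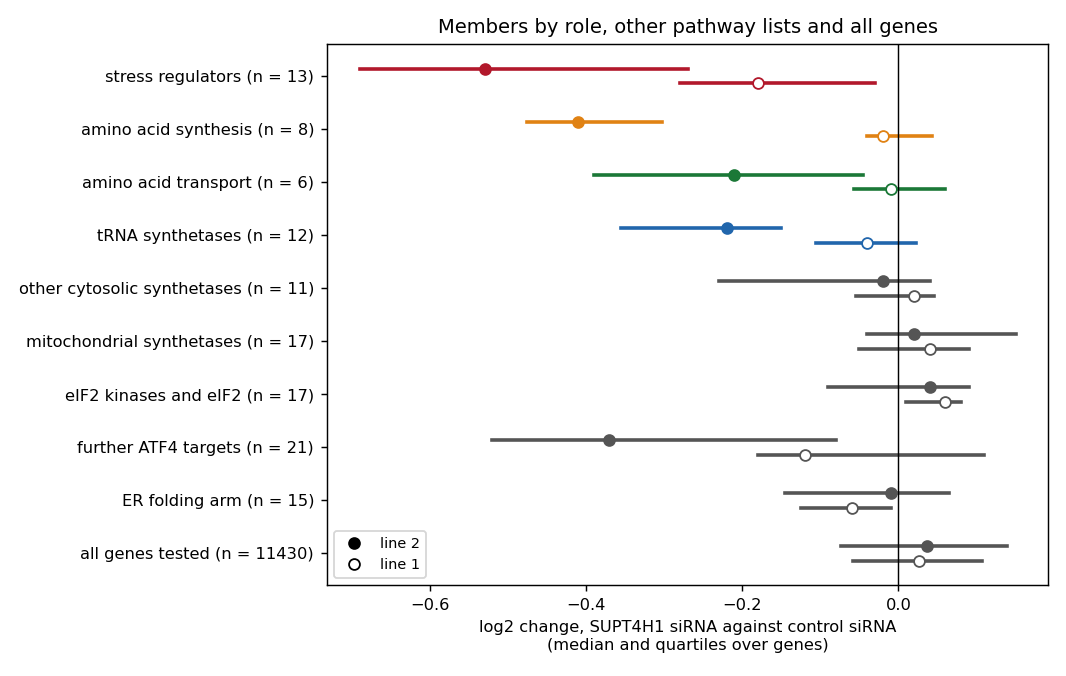
Median (points) and quartiles (bars) of the log2 change over the genes of each list, filled for line 2 and open for line 1, with all 11430 genes tested at the bottom. The ATF4 roles and the further targets lie to the left in line 2, from -0.53 for stress regulators to -0.21 for transporters. In line 2 the other synthetases, the eIF2 genes and the folding genes lie near the median of all genes. In line 1 the folding genes, at -0.06, lie left of the synthesis enzymes (-0.02), transporters (-0.01) and synthetases (-0.04), with all genes at 0.03.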

How the data were processed

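The authors deposited 1 table per sample with FPKM values, interval bounds and a status for each of 27032 rows, per the file headers, on build hg19 per the submitters' processing notes. For the aligner, counting tool, annotation and strand use, the entry is not given in the sources used here, and the depth is unknown. From these values, 2380 rows (small RNAs, chromosome Y and XIST) were left out and rows of 1 symbol summed. Other rows of chromosome X were kept. Genes with a mean of at least 1 FPKM and status OK in every sample were tested (12 failed the status rule). limma 3.58.1 in R 4.3.3 was run on log2(FPKM + 1) with a mean-variance trend, 2-sided. The block fit has terms for line and siRNA and 5 residual degrees of freedom. Within-line changes and the difference between the lines came from a fit of 4 group means with 4 degrees of freedom. The block fit was tested on simulated data. Same-line samples share their cells, and their deviations from the siRNA means correlated at 0.876 to 0.893 across genes, so the line pairs the groups.

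The 40 genes and all lists were chosen with earlier results of these data known. All 40 may be named, and of each further list the 3 largest passing changes, with HSPA5. RARS, SLC7A11 and SESN2 were named beyond this rule. Coordinates are 1-based. Promoter sequences are from RefSeq, matched by symbol or synonym on the same chromosome. Tables and plots used Python 3.11.15, pandas 2.3.3, numpy 2.4.6 and matplotlib 3.10.9. The alternatives were no block, the replicate number as block, a pseudocount of 0.1, no filter, a minimum of 5 FPKM, median-ratio scaling, no trend, the largest row of a symbol, each line alone and leaving out each sample.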

Additional observations from a re-analysis of the deposited data

Results flagged for a closer look

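In 29 of the 40 genes the change in line 2 differed from that in line 1 by the test of the difference itself (limma, Benjamini-Hochberg over all genes tested), where 9.89% of all genes did so. Differences are log2 changes of line 2 minus those of line 1, and each of the 29 was below 0. Among stress regulators they were -0.88 for TRIB3, -0.61 for CHAC1, -0.50 for DDIT4, -0.43 for VLDLR and STC2, -0.39 for EIF4EBP1, -0.36 for CEBPG, -0.35 for ATF4 and DDIT3, and -0.20 for NUPR1. Among synthesis enzymes they were -0.79 for PSAT1, -0.63 for ASNS, -0.59 for PHGDH, -0.38 for SHMT2, -0.36 for PYCR1 and -0.26 for MTHFD2. Transporters gave -0.48 for SLC1A5, -0.29 for SLC1A4, -0.25 for SLC3A2 and -0.18 for SLC7A1. Synthetases gave -0.35 for WARS, -0.25 for YARS, -0.24 for AARS, GARS and IARS, -0.23 for SARS and -0.18 for MARS and TARS. XPOT gave -0.39. The calls of NUPR1, MTHFD2, SLC7A1, SLC1A4, AARS, IARS, MARS and TARS were lost without at least 1 sample, with adjusted p up to 0.171.

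DDIT4 in control samples was marked for 1 sample apart from the other 3. Control line 1 replicate 2 stood at 80.37 FPKM, and the gap to the next sample was 0.853 of the range of the 4. Of the 80 groups examined 1 was marked. Each group of 4 holds 2 samples of each line, so where the lines differ in level a single sample can hardly stand apart. The rate of about 1 in 20 groups by chance holds for 4 like samples. The count of marks therefore cannot be read against it.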

How the results depend on the processing

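Settings with a line term, other than each line alone, kept the direction of every called gene. Without the replicate block the counts were 204 falls and 409 rises over all genes, and 4 falls and 0 rises among the 40, with 4 stress regulators and 0 of the synthesis enzymes, transporters and synthetases. Pairing by the replicate number within the line, as a replicate block beside the line, left 20 falls and 0 rises among the 40. These falls held 2 synthesis enzymes and 6 synthetases. Same-numbered samples deviated together at 0.103 in line 1 and 0.049 in line 2, so the numbers were not taken as pairs. With no filter on FPKM 19 of the 40 fell, among them 2 synthesis enzymes and 6 synthetases. CHAC1, PSAT1, SHMT2, SLC1A5, MARS and WARS then lost their calls. The line differences among the 40 numbered 20 with no filter, beside 29 in the main fit. They numbered 28 with a pseudocount of 0.1, 30 with a minimum of 5 FPKM and 31 after scaling by median ratios. Scaling by median ratios, which moved the median of all genes from 0.031 to 0.001, left 0 rises, a synthetase median of -0.186 and SLC7A5 at -0.021. Line 1 alone gave 13 falls and 3 rises, with 0 synthesis enzymes, 0 transporters and 4 synthetases, and medians of -0.184 (stress regulators), -0.018 (synthesis), -0.01 (transport) and -0.042 (synthetases). Signs then turned for CEBPG (0.052), EIF2AK3 (-0.025), STC2 (0.167), ASNS (0.023), PHGDH (0.172), PSPH (0.111), SLC3A2 (0.067), EPRS (0.025), LARS (0.028) and YARS (0.063). Line 2 alone gave 7 synthesis enzymes, medians of -0.527, -0.412, -0.211 and -0.221 in the same order, and SLC7A5 at -0.002. The causes were not tested.

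Leaving out 1 sample gave 1406 to 1654 falls and 2485 to 2927 rises over all genes, and 17 to 27 falls and 0 to 2 rises among the 40. By role these were 8 to 10 stress regulators, 2 to 5 synthesis enzymes, 2 to 3 transporters and 4 to 8 synthetases. The role medians ran from -0.396 to -0.307 (stress regulators), -0.265 to -0.18 (synthesis), -0.135 to -0.079 (transport) and -0.182 to -0.129 (synthetases). Line differences numbered 21 to 28, falls in line 2 31 to 33 and falls in line 1 9 to 15. Single genes that turned sign were SLC7A5 (-0.014 to 0.036), EIF2AK3 (-0.001 to 0.048), STC2 (-0.104 to 0.004), PSPH (-0.071 to 0.033) and LARS (-0.019 to 0.013). Of the 26 calls in the block fit 17 stood without any 1 sample, and CHAC1, PPP1R15A, PSAT1, SHMT2, SLC1A5, GARS, MARS, TARS and WARS lost theirs at least once. Counts in line 1 and line 2 under these settings were added after seeing the data. The deposited intervals of the 40 genes reach a half-width of 10.7%, and that of INHBE 48.5%.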

Other observations

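SLC7A11, the cystine carrier that ATF4 and NRF2 induce, was chosen after its values were seen. It averaged 7.22 FPKM after SUPT4H1 siRNA in line 2, against 9.62 FPKM in control samples, and 21.73 FPKM in line 1, against 16.68 FPKM. Its changes were -0.37 in line 2 and 0.36 in line 1, and the difference between the lines passed (limma adjusted p = 2.52e-05), while the block fit gave a change of 0.00 (adjusted p = 0.981). SESN2, a leucine sensor that ATF4 induces, averaged 16.48 FPKM in line 2, against 15.72 FPKM, and 26.68 FPKM in line 1, against 21.56 FPKM, and was likewise chosen after its values were seen.

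Control levels of the 40 genes differed between the lines in places. Line 2 over line 1 ranged from 0.68 for TRIB3 to 2.34 for SLC7A5, with 0.69 for PHGDH, 0.73 for AARS and 2.13 for STC2. No test was made of these ratios.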
